A study of Mus musculus with 9 samples.

Results

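Molecular chaperones help proteins to fold and hold damaged proteins in solution. The genes described here encode the heat shock protein families Hsp70, Hsp90, Hsp110 and small Hsp, their J protein partners and the protein disulfide isomerases, in brown adipose tissue of obese mice. Members were the protein-coding genes whose mouse symbol starts with Hspa, Hspb, Hsp90, Hsph, Dnaja, Dnajb, Dnajc or Pdia, without Hspa9, Dnajc15 and Dnajc19, and the rule found 74 of the 49315 genes in the files. By their usual location 37 were placed in the cytosol or nucleus, 18 in the endoplasmic reticulum (ER), 3 in mitochondria and 5 on vesicles, and 11 were left unplaced. A total of 67 members had enough counts to be tested.

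The tissue came from 9 male C57Bl/6J mice with diet-induced obesity, taken in at 14 weeks of age and given 3 weeks to acclimate. Of these, 5 received cotadutide, a peptide that activates both the GLP-1 receptor and the glucagon receptor, and 4 received vehicle, by daily injection under the skin for 28 days. All 9 mice were fed a 60% high fat diet until they weighed about 50 g, lived in single housing and were not kept at thermoneutrality. Each library held polyadenylated RNA of 1 mouse, from 30 mg of tissue. The design asks which genes of brown fat differ between cotadutide and vehicle.

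Library totals ranged from 10759631 to 19459796 counts in cotadutide mice and from 16064055 to 25108534 counts in vehicle mice. Levels are in CPM, the counts of a gene per 1000000 counts of the TMM-scaled library total, means are given ± SD with n = 5 for cotadutide and n = 4 for vehicle, and log2 fold changes are cotadutide over vehicle. A gene is called when its edgeR quasi-likelihood p, adjusted over all 14747 genes tested, is under 0.05. The defining brown fat gene Ucp1 was abundant in both groups, at 5886 ± 759 CPM in cotadutide and 4781 ± 961 CPM in vehicle mice. Libraries of both groups also carried skeletal muscle mRNA, and the 20 muscle markers summed to 5971 to 22803 CPM in cotadutide mice, against 26636 to 53789 CPM in vehicle mice.

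In the cytosol, Hsp70 proteins bind and release unfolded stretches with the help of J proteins, Hsp110 proteins exchange their nucleotide, and Hsp90 proteins finish the folding of kinases and receptors. Small Hsps hold aggregating proteins without ATP and are abundant in muscle. Heat shock factor 1 switches on the inducible cytosolic genes when unfolded protein builds up. In the ER, the Hsp70 protein BiP (Hspa5), the Hsp90 protein Grp94 (Hsp90b1) and disulfide isomerases fold secreted and membrane proteins, and ATF6 and XBP1 raise them through the ER stress response element in the unfolded protein response.

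That element, spelled CCAAT, then any 9 bases, then CCACG, was searched on both strands of promoter windows from 250 bases before to 50 bases after the start (RefSeq, GRCm38.p6). A window was found for 61 members. The element was present in 4 of 16 ER members with a window (Hspa5, Hsp90b1, Dnajc3 and Pdia6) and in 0 of 32 cytosolic members, against 0.137% of all 27025 genes with a window. Upstream sequence of Hspa5 and the stretches of the other 3 genes that hold the element are shown because these 4 genes carry the same element and can be set beside their mRNA levels below. Capitals mark the element, and Hsp90b1 holds 2 copies, the second of them as its reverse complement.
Hspa5, chr2:34771840-34772089, plus strand: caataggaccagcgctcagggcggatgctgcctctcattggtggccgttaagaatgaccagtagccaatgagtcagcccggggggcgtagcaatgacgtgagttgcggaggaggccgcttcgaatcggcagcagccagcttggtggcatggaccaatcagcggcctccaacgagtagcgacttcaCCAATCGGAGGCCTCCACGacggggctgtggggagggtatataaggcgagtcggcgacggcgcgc
Hsp90b1, chr10:86705617-86705677, minus strand: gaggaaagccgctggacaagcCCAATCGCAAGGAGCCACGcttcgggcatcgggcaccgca
Hsp90b1, chr10:86705512-86705572, minus strand: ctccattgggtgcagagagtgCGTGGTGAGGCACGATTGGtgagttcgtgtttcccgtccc
Dnajc3, chr14:118937806-118937866, plus strand: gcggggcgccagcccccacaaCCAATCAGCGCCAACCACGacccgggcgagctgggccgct
Pdia6, chr12:17266470-17266530, plus strand: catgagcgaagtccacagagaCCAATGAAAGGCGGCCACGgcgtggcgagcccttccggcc

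A heat shock element of 3 units, spelled GAA, TTC and GAA with any 2 bases between neighbours, and searched on both strands, was found in the windows of Hsph1 and Dnajb6, or 2 of 32 cytosolic members, against 0 of 16 ER members and 0.662% of all genes with a window. Both stretches are shown because 1 of the genes was called lower and the other was not. In Hsph1 the match reads as the reverse complement and lies after the start. No match says only that these letters are not in this window.
Hsph1, chr5:149636282-149636306, minus strand: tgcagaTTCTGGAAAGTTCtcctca
Dnajb6, chr5:29735831-29735885, plus strand: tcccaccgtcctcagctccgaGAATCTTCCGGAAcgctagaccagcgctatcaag

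Chaperone genes called under cotadutide were nearly all lower. Of the 67 members tested, 17 fell and 1 rose, or 25.4% and 1.49%. Of all genes tested, 9.34% were called lower and 9.31% higher. The median log2 fold change was -0.09 over the members and 0.00 over all genes tested. Members in the cytosol gave 11 of 35 lower and 0 higher, with a median of -0.21, and ER members 4 of 17 lower and 0 higher, with a median of -0.08. By edgeR, 2 of the cytosolic and 0 of the ER members were higher at an unadjusted p under 0.05. DESeq2 and limma-voom each had 1 cytosolic and 1 ER member higher at an unadjusted p under 0.05. After adjustment both also called 0 of either compartment higher. The other 3 calls were of members without a placed compartment. Groups did not overlap for 13 members that were lower and 2 that were higher under cotadutide, where 7.79% and 8.06% of all genes tested did so.

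**Figure D1:**
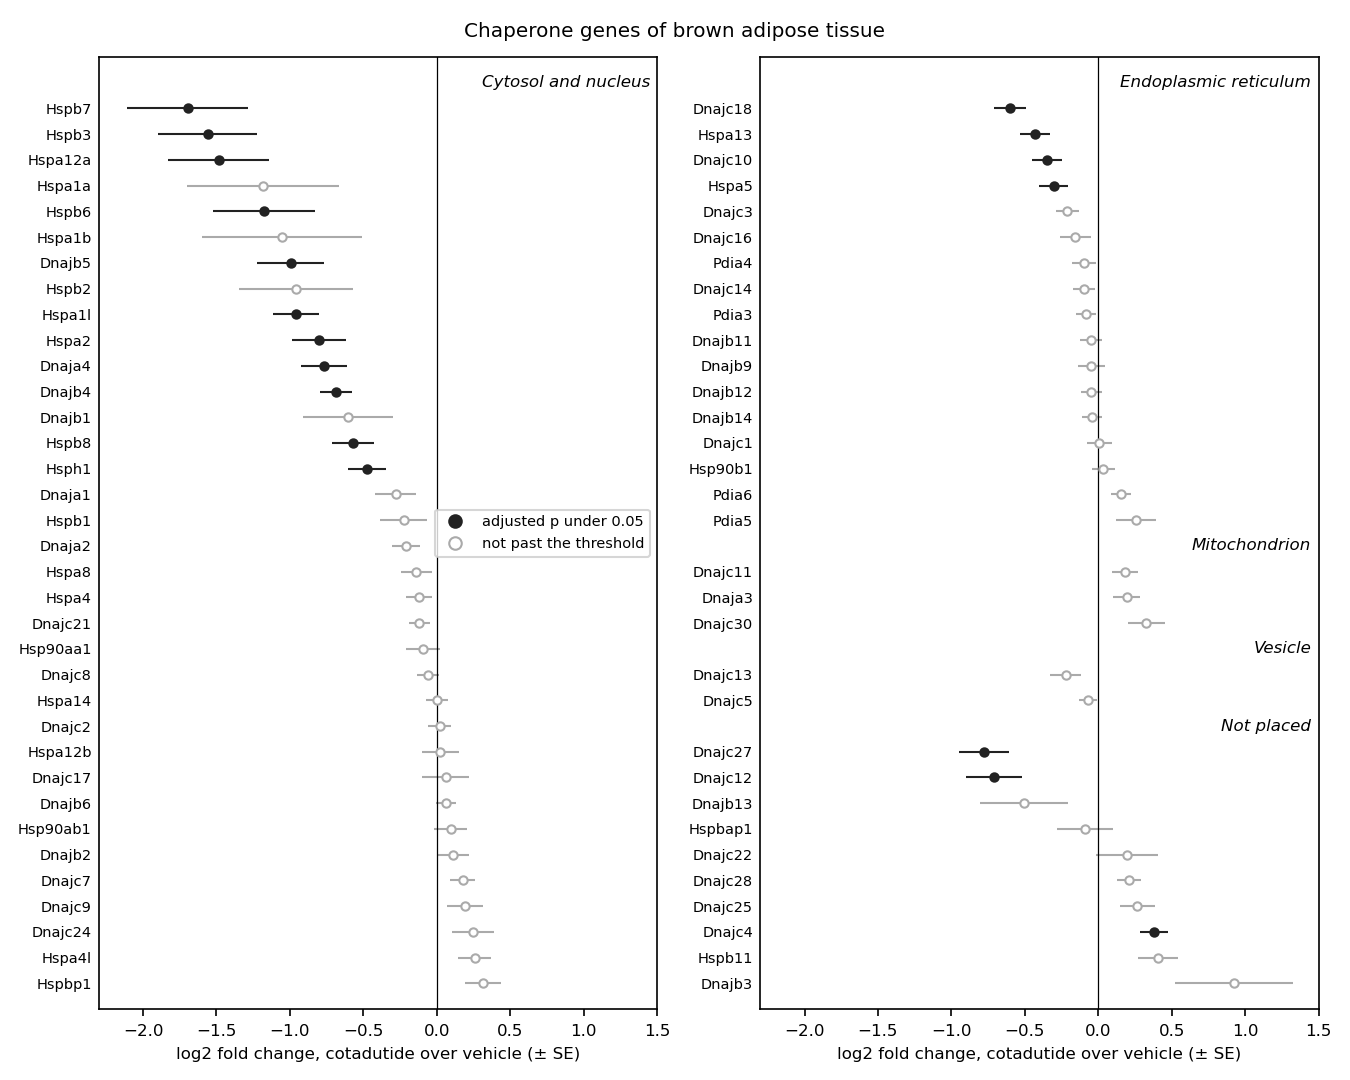
Log2 fold change of the 67 tested chaperone genes, cotadutide over vehicle, with bars of 1 SE, by compartment. Filled points passed an adjusted p of 0.05, and all filled points in the cytosol and the ER lie left of 0, the farthest being Hspb7 at -1.70.

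The number of calls rested on single libraries. Each library was left out in turn, 1 at a time. The count of lower members was 6 without cotadutide mouse 2, and was 3 when vehicle mouse 1 or 2 and 9 when vehicle mouse 3 was left out, against 12 to 19 when any other library was left out. The share of all genes called lower moved too, to 2.38% without cotadutide mouse 2, and for the vehicle mice to 0.621% with mouse 1, 0.708% with mouse 2 and 3.17% with mouse 3 left out. The median log2 fold change stayed below 0 in each such fit, at -0.265 to -0.161 for cytosolic and -0.116 to -0.060 for ER members. Over all genes that median lay between -0.030 and 0.004. No called member turned sign. The single call of a higher member was lost without cotadutide mouse 3 or vehicle mouse 1, 2 or 3, whereas 9 members were called higher without vehicle mouse 4. The share of all genes called higher also moved, to 14.3% without vehicle mouse 4, from 9.31% with all libraries. Dnajb4 and Hspa1l were called lower with any library left out, Dnajc18 in 8 of 9 such fits and Dnaja4 in 8 of 9.

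**Figure D2:**
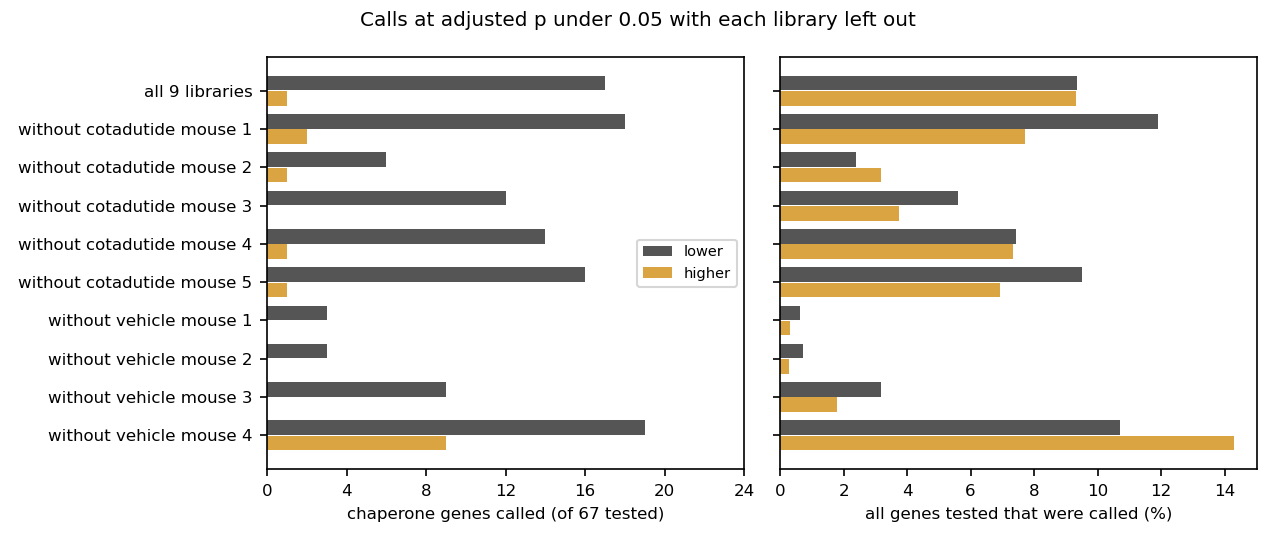
Number of chaperone genes called (left, of 67 tested) and share of all tested genes called in percent (right), in each direction, for the fit of all 9 libraries and with each library left out. Lower members range from 3 without vehicle mouse 1 or 2 to 19 without vehicle mouse 4.

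Small heat shock protein genes of the cytosol held the 2 largest falls among the members. Of these 6 genes 4 were called lower (66.7%), against 9.34% of all genes tested. None was called higher, and their median log2 fold change was -1.07. Hspb7, a small Hsp of heart and skeletal muscle that protects the sarcomere, had 73, 29, 14.2, 72.7 and 46.7 CPM in cotadutide mice 1 to 5, against 232, 109, 131 and 140.4 CPM in vehicle mice 1 to 4. Every cotadutide mouse was below every vehicle mouse, and cotadutide mouse 3 was lowest and vehicle mouse 1 highest (log2 fold change -1.70 with SE 0.41, adjusted p = 0.024 by edgeR). For Hspb7 the call was lost without cotadutide mouse 2 or vehicle mouse 1, 2 or 3 (edgeR adjusted p = 0.0542 to 0.0877) and without the filter on low counts (0.0935). Hspb3, whose protein pairs with Hspb2 in muscle, was a low mRNA with 2.47, 0.898, 0.569, 1.38 and 2.19 CPM in cotadutide mice 1 to 5, against 4.2, 4.73, 3.36 and 5.46 CPM in vehicle mice 1 to 4. The groups did not overlap, and the fitted level was 2.95 times lower under cotadutide (log2 fold change -1.56 with SE 0.34, adjusted p = 0.0178 by edgeR). For Hspb3 the call was lost without vehicle mouse 1 or 2 (edgeR adjusted p = 0.0536 to 0.056).

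Hspb6, which encodes the small Hsp Hsp20 of muscle, had 195, 91.4, 38.8, 141 and 133 CPM in cotadutide mice 1 to 5, against 299, 214, 264 and 309.6 CPM in vehicle mice 1 to 4. The groups did not overlap, although cotadutide mouse 1 came close to vehicle mouse 2 (log2 fold change -1.18 with SE 0.35, adjusted p = 0.0402 by edgeR). For Hspb6 the call was lost without cotadutide mouse 2 or 4 or vehicle mouse 1, 2, 3 or 4 (edgeR adjusted p = 0.0716 to 0.136) and without the filter on low counts (0.148). Hspb8, which works with the cochaperone Bag3 to send damaged muscle proteins to autophagy, had 138, 100.2, 98.5, 109 and 145 CPM in cotadutide mice 1 to 5, against 184, 169, 139 and 209.5 CPM in vehicle mice 1 to 4. Vehicle mouse 3 lay within the range of the cotadutide mice, so the groups overlapped (log2 fold change -0.57 with SE 0.15, adjusted p = 0.0256 by edgeR). For Hspb8 the call was lost without cotadutide mouse 2 or vehicle mouse 1 or 2 (edgeR adjusted p = 0.0594 to 0.0771). Hspb2 averaged 8.47 ± 4.99 CPM in cotadutide and 16.6 ± 5.34 CPM in vehicle mice and missed the threshold (log2 fold change -0.96 with SE 0.39, adjusted p = 0.103 by edgeR). It shares 30.2% of its exon bases with Cryab on the opposite strand, so its counts are uncertain. Hspb1, the widely expressed Hsp25, averaged 176 ± 39.1 CPM in cotadutide and 205 ± 28.6 CPM in vehicle mice with overlapping groups (log2 fold change -0.23 with SE 0.16, adjusted p = 0.33 by edgeR).

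**Figure D3:**
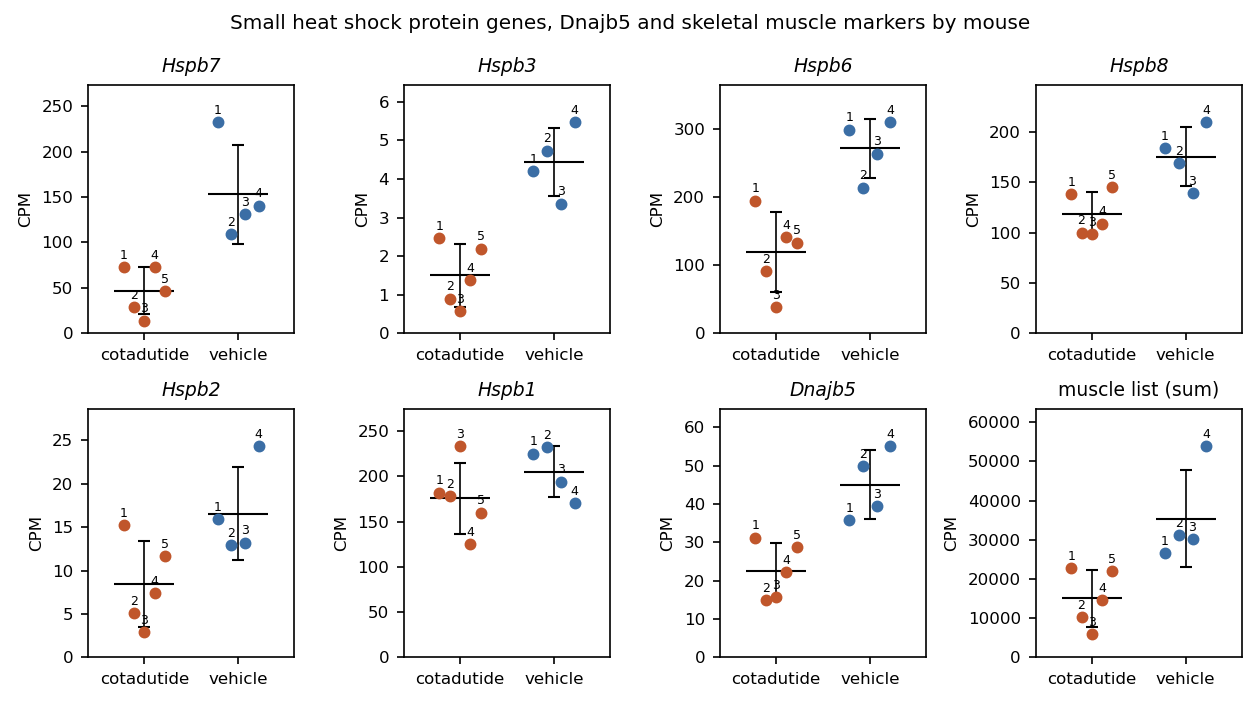
CPM by mouse (numbered points) of 6 small heat shock protein genes, Dnajb5 and the sum of 20 skeletal muscle markers, with the mean (line) and SD (bars) of 5 cotadutide and 4 vehicle mice. Hspb7, Hspb3, Hspb6, Dnajb5 and the muscle sum have no overlap between groups, whereas Hspb1 does.

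Skeletal muscle markers moved with these genes. All 20 markers of the muscle list had a negative log2 fold change, with a median of -1.18, and none was at 0 counts. By edgeR 10 were called lower, or 50%, against 9.34% of all genes tested. DESeq2 called 16 lower and limma-voom 15, where they called 11.6% and 10% of all genes tested lower. Among the most abundant were Myh4, the fast myosin heavy chain, at 2039 ± 949.7 CPM in cotadutide and 5374 ± 1792 CPM in vehicle mice, and skeletal actin Acta1 at 1979.8 ± 992 CPM in cotadutide and 4709.9 ± 1712 CPM in vehicle mice. Ckm, muscle creatine kinase, averaged 1998 ± 966 CPM in cotadutide and 4057 ± 2287 CPM in vehicle mice and was not called (edgeR adjusted p = 0.102). The muscle sum was 22803, 10314, 5971, 14641 and 21915 CPM in cotadutide mice 1 to 5, against 26636, 31117, 30103 and 53789 CPM in vehicle mice 1 to 4. Hspb2 and Hspb3 ordered the cotadutide mice as the muscle sum did, with mouse 1 highest, then mice 5, 4, 2 and 3. Among vehicle mice, Hspb2, Hspb3, Hspb6 and Hspb8 were highest in mouse 4, as the muscle sum was. Hspb7 was instead highest in vehicle mouse 1, which had the lowest muscle sum of the vehicle mice. Hspb1 was lowest in vehicle mouse 4, at 170.3 CPM. The part of muscle mRNA in these differences was not tested, and in whole tissue fewer cells of a type cannot be told apart from less RNA per cell.

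Of the 8 cytosolic Hsp70 genes 3 fell (37.5%) and 0 rose, where 9.34% of all genes tested were called lower and 9.31% higher. Hspa1l, an Hsp70 best known from testis, had 3.6, 2.82, 2.28, 2.92 and 3.52 CPM in cotadutide mice 1 to 5, against 5.72, 6.5, 5.89 and 5.4 CPM in vehicle mice 1 to 4. It was low in every mouse and the groups did not overlap (log2 fold change -0.96 with SE 0.16, adjusted p = 0.014 by edgeR). Its counts are uncertain, since 71.9% of its exon bases overlap Gm10501 on the opposite strand. Hspa2, an Hsp70 needed for sperm formation, had 6.64, 4.74, 3.56, 4.68 and 4.76 CPM in cotadutide mice 1 to 5, against 10.2, 9.13, 8.37 and 6.37 CPM in vehicle mice 1 to 4. Vehicle mouse 4 lay just under cotadutide mouse 1 (log2 fold change -0.80 with SE 0.18, adjusted p = 0.0199 by edgeR). For Hspa2 the call was lost without cotadutide mouse 2 or vehicle mouse 1 or 2 (edgeR adjusted p = 0.0523 to 0.0698).

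Hspa12a, a distant relative of the Hsp70 family, had 16, 10.1, 11.9, 14.5 and 25.4 CPM in cotadutide mice 1 to 5, against 53.7, 44.8, 57.7 and 16.7 CPM in vehicle mice 1 to 4. Vehicle mice 1, 2 and 3 stood at 44.8 CPM or more, whereas vehicle mouse 4 lay within the range of the cotadutide mice (log2 fold change -1.48 with SE 0.34, adjusted p = 0.0215 by edgeR). Without vehicle mouse 4 its log2 fold change was -1.75 (edgeR adjusted p = 0.00409). For Hspa12a the call was lost without cotadutide mouse 2, 3 or 4 or vehicle mouse 1, 2 or 3 (edgeR adjusted p = 0.0508 to 0.0786) and without the filter on low counts (0.0767).

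Stress-inducible Hsp70 genes varied widely between mice of both groups. Hspa1a, which encodes the classic inducible Hsp70, had 22, 8.85, 10.7, 4.73 and 23.9 CPM in cotadutide mice 1 to 5, against 21.5, 44.5, 50.9 and 9.72 CPM in vehicle mice 1 to 4. Its neighbour Hspa1b, a near-identical copy, ranged between 3.85 and 23.6 CPM in cotadutide mice, with a mean of 14.2 ± 7.91 CPM, and between 7.99 and 46 CPM in vehicle mice, with a mean of 29.2 ± 19.4 CPM. Vehicle mice 2 and 3 were highest for both genes and cotadutide mouse 4 lowest, while vehicle mouse 4 lay low within the cotadutide range. The split of reads between the 2 genes is uncertain because they are nearly identical. Neither passed the threshold (Hspa1a log2 fold change -1.18 with SE 0.52, adjusted p = 0.129 by edgeR, Hspa1b log2 fold change -1.05 with SE 0.55, adjusted p = 0.193 by edgeR). In the mm10 coordinates of the files both lie on chromosome 17, Hspa1b (ENSMUSG00000090877) from 34956436 to 34959238 and Hspa1a (ENSMUSG00000091971) from 34969190 to 34972156.

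Dnajb1, the inducible Hsp40 that activates Hsp70, had 71.3, 48.3, 49.9, 35.8 and 78 CPM in cotadutide mice 1 to 5, against 86.8, 90.4, 129 and 38.5 CPM in vehicle mice 1 to 4. It too was lowest, among vehicle mice, in mouse 4 and missed the threshold (log2 fold change -0.60 with SE 0.31, adjusted p = 0.187 by edgeR), but passed it without that mouse (log2 fold change -0.85, edgeR adjusted p = 0.0488). Hsph1, which encodes the inducible Hsp110, had 84, 72.4, 73.4, 68.7 and 56.5 CPM in cotadutide mice 1 to 5, against 92.8, 109.8, 115 and 77.4 CPM in vehicle mice 1 to 4. It was called lower although vehicle mouse 4 lay below cotadutide mouse 1 (log2 fold change -0.48 with SE 0.13, adjusted p = 0.032 by edgeR). For Hsph1 the call was lost without cotadutide mouse 2, 3 or 4 or vehicle mouse 1, 2 or 3 (edgeR adjusted p = 0.0544 to 0.0914). Dnaja1, a J protein partner of constitutive Hsp70, averaged 199 ± 22.4 CPM in cotadutide and 242 ± 51.8 CPM in vehicle mice and was not called with all libraries (log2 fold change -0.28 with SE 0.14, adjusted p = 0.175 by edgeR). Without vehicle mouse 4 its log2 fold change was -0.40, past the threshold (edgeR adjusted p = 0.0251).

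**Figure D4:**
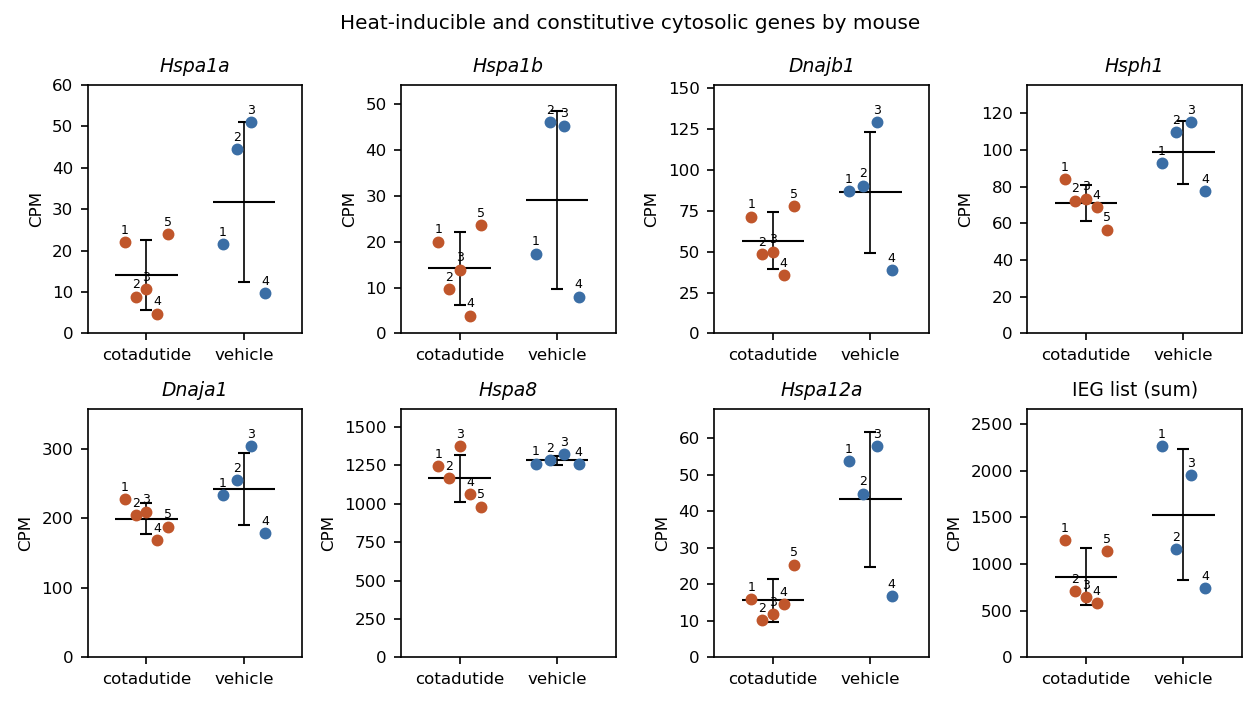
CPM by mouse (numbered points) of heat-inducible and other cytosolic chaperone genes and the sum of 10 immediate early genes (IEG), with the mean (line) and SD (bars) of 5 cotadutide and 4 vehicle mice. Vehicle mouse 4 is the lowest vehicle mouse for Hspa1a, Hspa1b, Dnajb1, Hsph1, Dnaja1, Hspa12a and the immediate early sum.

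Immediate early genes, which respond within minutes to stimulation or handling, were measured in the same libraries. Their 10 members summed to 1254, 712, 643, 585 and 1136 CPM in cotadutide mice 1 to 5, against 2261, 1162, 1954 and 742 CPM in vehicle mice 1 to 4. Cotadutide mice 1 and 5 had the highest sums of their group and also the highest Hspa1a, Hspa1b and Dnajb1 levels. The vehicle mice did not follow this order, since vehicle mouse 1 had the highest sum but lower levels of these 3 genes than vehicle mice 2 and 3. Of this list 2 of 10 were called lower, Dusp1 and Jun, or 20%, against 9.34% of all genes tested. None was called higher, and the median log2 fold change was -0.77. The part of this variation in the chaperone values was not tested.

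The abundant constitutive chaperones of the cytosol were not called. Hspa8, the constitutive Hsp70, averaged 1165 ± 153 CPM in cotadutide and 1283 ± 30.3 CPM in vehicle mice (log2 fold change -0.14 with SE 0.10, adjusted p = 0.363 by edgeR). Hsp90ab1, the constitutive Hsp90, averaged 1441 ± 217 CPM in cotadutide and 1351 ± 56.8 CPM in vehicle mice (log2 fold change 0.09 with SE 0.11, adjusted p = 0.588 by edgeR), and its sign turned without cotadutide mouse 3. Together they made up 40.1% of the summed CPM of all members in cotadutide mice and 36.7% in vehicle mice. Per kilobase of exon, as given in the files, Hsp90ab1 stood at 480.4 CPM in cotadutide and 450.4 CPM in vehicle mice, and Hspa8 at 271 CPM in cotadutide and 298 CPM in vehicle mice, the highest means per length among the members. Hsp90aa1, the inducible Hsp90, averaged 357 ± 49.5 CPM in cotadutide and 380.5 ± 34 CPM in vehicle mice (log2 fold change -0.09 with SE 0.12, adjusted p = 0.591 by edgeR). The Hsp110 genes Hspa4 and Hspa4l had log2 fold changes of -0.12 and 0.26 and were not called (edgeR adjusted p = 0.338 and 0.132).

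Among the 15 cytosolic J proteins tested, 3 fell (20%) and 0 rose, where 9.34% of all genes tested were called lower and 9.31% higher. Dnajb4, a partner of Hsp70 related to Dnajb1, had 53.9, 42, 42, 46.2 and 53.3 CPM in cotadutide mice 1 to 5, against 76, 81.7, 84.1 and 63.4 CPM in vehicle mice 1 to 4. Its groups did not overlap, and it had the smallest adjusted p of all members (log2 fold change -0.68 with SE 0.11, adjusted p = 0.0133 by edgeR). Dnaja4, a J protein of the same class as Dnaja1, had 21.7, 14.7, 14.7, 21.4 and 18.7 CPM in cotadutide mice 1 to 5, against 39.5, 26.3, 32 and 26.7 CPM in vehicle mice 1 to 4. The groups did not overlap (log2 fold change -0.77 with SE 0.16, adjusted p = 0.0165 by edgeR), but 44.1% of its exon bases overlap Wdr61 on the opposite strand. For Dnaja4 the call was lost without vehicle mouse 1 (edgeR adjusted p = 0.055). Dnajb5, a J protein studied in heart muscle, had 31.2, 14.9, 15.7, 22.2 and 28.7 CPM in cotadutide mice 1 to 5, against 35.7, 49.9, 39.4 and 55 CPM in vehicle mice 1 to 4. It too was lower in every cotadutide mouse (log2 fold change -0.996 with SE 0.23, adjusted p = 0.0202 by edgeR), and like the muscle sum it was highest in vehicle mouse 4. For Dnajb5 the call was lost without cotadutide mouse 2 or vehicle mouse 1 or 2 (edgeR adjusted p = 0.0528 to 0.0594) and without the filter on low counts (0.0583). Dnajb6, Dnajb2 and Dnajc2 were not called, with log2 fold changes of 0.06 for Dnajb6, 0.11 for Dnajb2 and 0.02 for the ribosome partner Dnajc2 (edgeR adjusted p = 0.529, 0.483 and 0.889). Hspbp1, which releases nucleotide from Hsp70, had a log2 fold change of 0.31 and was called only without vehicle mouse 4 among the fits run (edgeR adjusted p = 0.0838 with all libraries).

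Among ER members both Hsp70 genes were called lower, whereas none of the 4 tested disulfide isomerases with a Pdia symbol was called. For all genes tested the share called lower was 9.34%. Hspa5 (ENSMUSG00000026864, chromosome 2 from 34771970 to 34777547 in mm10), which encodes BiP, the main Hsp70 of the ER, had 273, 251, 216, 277 and 241 CPM in cotadutide mice 1 to 5, against 349, 303, 287 and 304 CPM in vehicle mice 1 to 4. Every cotadutide mouse was below every vehicle mouse, and the fitted level was 1.23 times lower (log2 fold change -0.30 with SE 0.10, adjusted p = 0.0491 by edgeR). For Hspa5 the call was lost without cotadutide mouse 2, 3 or 5 or vehicle mouse 1, 2 or 3 (edgeR adjusted p = 0.0703 to 0.159) and with RLE size factors (0.0543). Hspa13, an ER Hsp70 without the usual substrate domain, had 11.1, 10.0, 10.6, 10.8 and 11.6 CPM in cotadutide mice 1 to 5, against 16.3, 14.1, 15.5 and 12.3 CPM in vehicle mice 1 to 4. Its groups did not overlap either (log2 fold change -0.43 with SE 0.10, adjusted p = 0.0212 by edgeR). For Hspa13 the call was lost without cotadutide mouse 2 or vehicle mouse 1, 2 or 3 (edgeR adjusted p = 0.0548 to 0.0742).

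Of the 10 ER J proteins 2 were called lower (20%) and 0 higher, where 9.34% of all genes tested were called lower and 9.31% higher. Dnajc10, a J protein that also reduces disulfides before degradation, had 21.7, 17.2, 17.3, 23.1 and 18.8 CPM in cotadutide mice 1 to 5, against 27.3, 25.4, 23.7 and 23.6 CPM in vehicle mice 1 to 4. The highest cotadutide value, of mouse 4, was just under the lowest vehicle value (log2 fold change -0.35 with SE 0.10, adjusted p = 0.0406 by edgeR). For Dnajc10 the call was lost without cotadutide mouse 2, 3 or 5 or vehicle mouse 1, 2 or 3 (edgeR adjusted p = 0.0565 to 0.125). Dnajc18, an ER membrane J protein, had 7.87, 6.6, 7.19, 7.21 and 8.19 CPM in cotadutide mice 1 to 5, against 10.4, 12.3, 10.2 and 12 CPM in vehicle mice 1 to 4. Its groups did not overlap (log2 fold change -0.60 with SE 0.11, adjusted p = 0.0147 by edgeR), and the call was lost only without vehicle mouse 2 among the fits with a library left out (edgeR adjusted p = 0.0503). Dnajc3, the BiP partner P58IPK, averaged 60.1 ± 4.28 CPM in cotadutide and 69.5 ± 4.37 CPM in vehicle mice and missed the threshold (log2 fold change -0.21 with SE 0.08, adjusted p = 0.074 by edgeR). It was called lower without cotadutide mouse 5 or vehicle mouse 4 (edgeR adjusted p = 0.0451 and 0.0332). Dnajb9 and Dnajb11, the ER J proteins ERdj4 and ERdj3, had log2 fold changes of -0.05 and -0.05 (edgeR adjusted p = 0.748 and 0.66).

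Hsp90b1, the ER Hsp90 Grp94, had 289.8, 278, 304, 264 and 262 CPM in cotadutide mice 1 to 5, against 282, 279, 259 and 272 CPM in vehicle mice 1 to 4. The groups overlapped throughout (log2 fold change 0.03 with SE 0.08, adjusted p = 0.789 by edgeR). The ratio of Hspa5 to Hsp90b1 CPM was 0.71 to 1.05 in cotadutide mice, against 1.09 to 1.24 in vehicle mice, without overlap. This ratio was chosen after its values were seen and is given as a description.

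The isomerases Pdia3, Pdia4, Pdia5 and Pdia6 were tested and none was called by edgeR, DESeq2 or limma-voom. At an unadjusted p under 0.05, edgeR had 0 of 4 higher or lower, whereas DESeq2 and limma-voom each had 1 higher. Pdia3, the glycoprotein isomerase ERp57, averaged 161 ± 1.71 CPM in cotadutide and 170.4 ± 7.97 CPM in vehicle mice, and Pdia4 averaged 36.4 ± 3.22 CPM in cotadutide and 39 ± 1.22 CPM in vehicle mice (edgeR adjusted p = 0.415 and 0.395). Pdia6, an isomerase that binds BiP, had 119.6, 121, 122, 125 and 117 CPM in cotadutide mice 1 to 5, against 109.9, 113, 99.6 and 112 CPM in vehicle mice 1 to 4. Every cotadutide mouse was above every vehicle mouse, yet the difference missed the threshold (log2 fold change 0.15 with SE 0.07, adjusted p = 0.14 by edgeR). Thus of the 4 genes with the ER stress response element shown above, 1 was called lower, and their log2 fold changes were -0.30 for Hspa5, -0.21 for Dnajc3, 0.03 for Hsp90b1 and 0.15 for Pdia6.

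**Figure D5:**
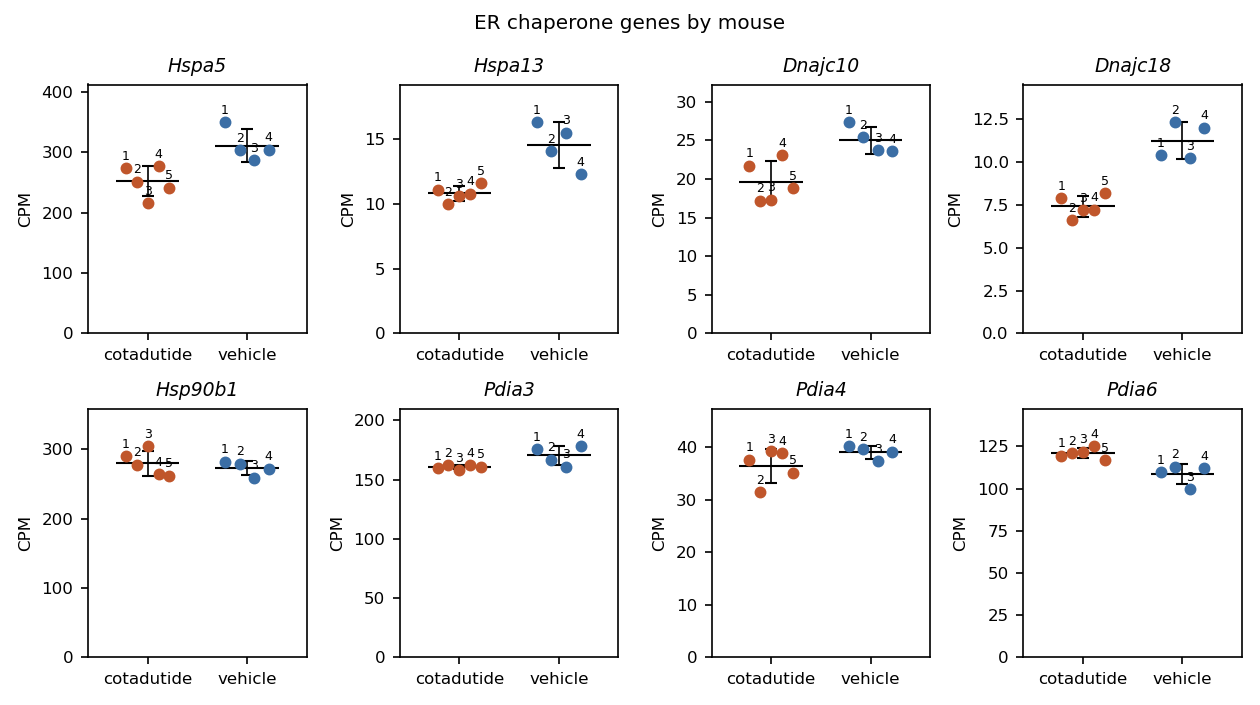
CPM by mouse (numbered points) of 8 ER chaperone genes, with the mean (line) and SD (bars) of 5 cotadutide and 4 vehicle mice. Hspa5, Hspa13, Dnajc10 and Dnajc18 are lower in every cotadutide mouse, Pdia6 is higher in every cotadutide mouse, and Hsp90b1, Pdia3 and Pdia4 overlap.

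Summed over members, the cytosolic genes stood at 4744 ± 393 CPM in cotadutide and 5378 ± 158 CPM in vehicle mice, and the ER genes at 1188 ± 27.5 CPM in cotadutide and 1270 ± 50.3 CPM in vehicle mice. The cytosolic small Hsps summed to 471 ± 87.4 CPM in cotadutide and 827 ± 105 CPM in vehicle mice. Without them the cytosolic sum was 4273 ± 402 CPM in cotadutide and 4552 ± 225 CPM in vehicle mice. Of the 29 tested genes in that sum 7 were called lower (24.1%), against 9.34% of all genes tested. These sums are dominated by a few abundant genes and carry no test.

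The 3 mitochondrial J proteins had positive log2 fold changes and were not called with all libraries. Dnaja3, the partner of mitochondrial Hsp70, averaged 214 ± 12.5 CPM in cotadutide and 188 ± 21 CPM in vehicle mice (log2 fold change 0.19 with SE 0.09, adjusted p = 0.156 by edgeR). Dnajc11, which binds the complex that shapes mitochondrial cristae, averaged 106 ± 5.67 CPM in cotadutide and 93.4 ± 11.5 CPM in vehicle mice (log2 fold change 0.18 with SE 0.09, adjusted p = 0.172 by edgeR). Dnajc30 averaged 18.5 ± 1.32 CPM in cotadutide and 14.7 ± 3.08 CPM in vehicle mice (log2 fold change 0.33 with SE 0.13, adjusted p = 0.0895 by edgeR), and 26.2% of its exon bases overlap Bud23 on the opposite strand. All 3 were called higher without vehicle mouse 4, the vehicle mouse with the highest level of each. That fit called 14.3% of all genes tested higher. Of the vesicle J proteins, Dnajc5 of synaptic and secretory vesicles and the endosomal Dnajc13 were tested and had log2 fold changes of -0.07 and -0.22 (edgeR adjusted p = 0.445 and 0.155).

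Members without a placed compartment held the only gene that rose. Dnajc4, a little studied J protein, had 39.9, 49.6, 43.9, 39.3 and 36.9 CPM in cotadutide mice 1 to 5, against 30.3, 31.2, 32.9 and 34.6 CPM in vehicle mice 1 to 4. Every cotadutide mouse was above every vehicle mouse (log2 fold change 0.38 with SE 0.09, adjusted p = 0.0236 by edgeR). For Dnajc4 the call was lost without cotadutide mouse 3 or vehicle mouse 1, 2 or 3 (edgeR adjusted p = 0.0576 to 0.0777). Dnajc27, a small GTPase fused to a J domain, had 13.5, 9.1, 8.25, 11.8 and 16.2 CPM in cotadutide mice 1 to 5, against 19.1, 19.2, 19.4 and 22.7 CPM in vehicle mice 1 to 4. The groups did not overlap and the gene fell (log2 fold change -0.78 with SE 0.17, adjusted p = 0.0184 by edgeR). For Dnajc27 the call was lost without vehicle mouse 1 or 2 (edgeR adjusted p = 0.0514 to 0.056). Dnajc12, a partner of aromatic amino acid hydroxylases in humans, fell as well, with 3.5, 2.05, 2.77, 3.69 and 4.09 CPM in cotadutide mice 1 to 5, against 5.21, 4.69, 5.18 and 6 CPM in vehicle mice 1 to 4 (log2 fold change -0.71 with SE 0.19, adjusted p = 0.0289 by edgeR). For Dnajc12 the call was lost without cotadutide mouse 2 or 3 or vehicle mouse 1, 2 or 3 (edgeR adjusted p = 0.0542 to 0.0777). Hspb11, which despite its name is a subunit of intraflagellar transport, had a log2 fold change of 0.40 and just missed the threshold (edgeR adjusted p = 0.057), but was called higher by DESeq2. Dnajb3 had the largest positive log2 fold change of the members, 0.92 (edgeR adjusted p = 0.127), and was called higher by limma-voom.

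Spread between mice differed widely among members. The median coefficient of variation over the 67 tested members was 11.9% in cotadutide and 9.53% in vehicle mice, against 14.4% in cotadutide and 13.5% in vehicle mice over all genes tested. It exceeded 30% in at least 1 group for 12 members, and was under 10% in both groups for 22. Hspa1a reached 60.1% in cotadutide and 61.1% in vehicle mice, and Hspa1b 55.8% in cotadutide and 66.6% in vehicle mice. Pdia3 varied little, by 1.07% in cotadutide and 4.68% in vehicle mice.

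The 7 members that were not tested had few counts. Dnajc6, the clathrin uncoating factor auxilin of neurons, had 5 counts over the 5 cotadutide libraries and 20 over the 4 vehicle libraries, or 0.0629 CPM (exact 95% Poisson interval 0.0204 to 0.147) and 0.24 CPM (0.147 to 0.371). Dnajb7 had 20 and 23 counts, Hspb9 6 and 6, Pdia2 2 and 3, Dnajb8 1 and 0, and Dnajc5b 0 and 1, over the cotadutide and vehicle libraries. Pdia2 shares 92.4% of its exon bases with Arhgdig on the same strand, so its low counts are uncertain as a measure of its level. Dnajc5g had 0 counts in both groups, and the upper end of the same exact interval is 0.0464 CPM in cotadutide and 0.0443 CPM in vehicle mice. These limits cover counting error only.

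Partner genes outside the symbol families are read against the 9.31% of all genes tested that were called higher and the 9.34% called lower. Of 17 cochaperones of Hsp70 and Hsp90, 2 fell and 2 rose (11.8% each), with a median log2 fold change of 0.04. Bag3, the partner of Hspb8 in autophagy of damaged protein, averaged 70.8 ± 7.29 CPM in cotadutide and 89.9 ± 6.8 CPM in vehicle mice (log2 fold change -0.34, edgeR adjusted p = 0.0277). Chordc1, a partner of Hsp90, fell by 0.23 on the log2 scale (edgeR adjusted p = 0.0459). Bag1, which releases nucleotide from Hsp70, averaged 358 ± 36.4 CPM in cotadutide and 269 ± 34.9 CPM in vehicle mice and rose (log2 fold change 0.41, edgeR adjusted p = 0.0276). Sugt1, another Hsp90 cochaperone, rose too (log2 fold change 0.55, edgeR adjusted p = 0.024).

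Of the 4 heat shock factor genes tested, 1 fell and 0 rose. Hsf1, the main activator of the heat shock response, was not called (log2 fold change 0.14, edgeR adjusted p = 0.363), whereas Hsf2 averaged 8.81 ± 1.84 CPM in cotadutide and 12.3 ± 1.21 CPM in vehicle mice and fell (log2 fold change -0.49, edgeR adjusted p = 0.0376). Of 13 chaperonin and prefoldin genes, which fold actin and tubulin, 1 rose (7.69%) and 0 fell, the prefoldin subunit Pfdn5 (log2 fold change 0.40, edgeR adjusted p = 0.0495).

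Of 16 ER folding partners outside these families, 2 rose (12.5%) and 0 fell, with a median log2 fold change of -0.01 (edgeR). By edgeR, 1 of them was lower at an unadjusted p under 0.05, and DESeq2 called 1 lower and limma-voom 0. That gene by edgeR was P4hb, a disulfide isomerase without a Pdia symbol. P4hb averaged 102 ± 16.7 CPM in cotadutide and 129 ± 8.43 CPM in vehicle mice (log2 fold change -0.34, edgeR adjusted p = 0.0575). The prolyl isomerases Fkbp2 (94.1 ± 12.5 CPM in cotadutide and 64.6 ± 7.45 CPM in vehicle mice, edgeR adjusted p = 0.0163) and Ppib (52.4 ± 4.42 CPM in cotadutide and 43 ± 3.22 CPM in vehicle mice, edgeR adjusted p = 0.0367) rose. Of 14 sensors, factors and degradation genes of the unfolded protein response, 2 rose (14.3%) and 1 fell (7.14%). Derl1 and Derl2, channels for export of misfolded protein from the ER, rose by log2 fold changes of 0.42 and 0.25 (edgeR adjusted p = 0.0198 and 0.049), and Sel1l, the scaffold of the same pathway, fell by 0.21 on the log2 scale (edgeR adjusted p = 0.0495). The sensors Ern1, Eif2ak3 and Atf6 and the factor Xbp1 were not called (edgeR adjusted p = 0.166, 0.256, 0.386 and 0.581).

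Markers of other cells of the tissue were measured beside these results, and their part in them was not tested. Of all genes tested, edgeR called 9.31% higher and 9.34% lower. Of 12 macrophage markers 7 fell (58.3%) and 0 rose. The macrophage sums were 232 to 479 CPM in cotadutide and 379 to 622 CPM in vehicle mice. Of 14 brown adipocyte markers 5 rose (35.7%) and 0 fell. The brown adipocyte sums were 28131 to 36248 CPM in cotadutide and 20779 to 25935 CPM in vehicle mice. Smooth muscle and pericyte markers gave 1 higher and 1 lower of 12 (8.33% each), near the shares of all genes. Their sums of 788 to 1076 CPM in cotadutide and 1262 to 1645 CPM in vehicle mice were set apart by Des, a gene of skeletal muscle too, and without it they overlapped, at 428 to 563 CPM in cotadutide and 467 to 631 CPM in vehicle mice. Endothelial markers gave 1 higher of 10 (10%), also near that share. The endothelial sums were 709.5 to 899.7 CPM in cotadutide and 671 to 832 CPM in vehicle mice. Of 10 fibroblast markers edgeR called 0, where 4 had an unadjusted p under 0.05 and DESeq2 and limma-voom each called 2 lower, with sums of 567 to 1338 CPM in cotadutide and 995 to 1649 CPM in vehicle mice. No gene of the B and plasma cell list or of the neuronal and Schwann list was called by edgeR, DESeq2 or limma-voom, and 0 had an unadjusted p under 0.05 by edgeR. Of the 9 B and plasma cell genes 5 were tested, and of the 10 neuronal and Schwann genes 7. The B and plasma cell list summed to 42.8 CPM in cotadutide mouse 3, which stood apart from the other cotadutide mice at 6.22 to 7.66 CPM and the vehicle mice at 6.48 to 9.14 CPM, and the neuronal and Schwann list to 268 to 321 CPM in cotadutide and 309 to 359 CPM in vehicle mice.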

How the data were processed

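Polyadenylated RNA was sequenced from brown fat of 5 cotadutide and 4 vehicle mice. The authors deposited raw counts of reads per Ensembl gene for each library, not normalized. Per the submitters' processing notes, the build was mm10 and the tools included the aligner STAR 2.5.2b, the trimmer Trimmomatic 0.36, the counter featureCounts (Subread 1.5.2) and bcl2fastq 2.17. The strand setting is not given in the sources used here, so overlapping genes on opposite strands cannot be told apart. Symbols came from a reference table for 48970 of 49315 gene IDs, and the other 345 held 0.0310% of counts. The count files were scaled by TMM and tested with edgeR 4.0.16 (R 4.3.3; glmQLFit, robust, all 9 libraries, group as the only term) after filterByExpr, which left 14747 genes, and p was adjusted by Benjamini-Hochberg. The script was tested on simulated data. DESeq2 1.42.0, limma-voom (limma 3.58.1), other scalings, other filters, a replicate block and each library left out were the alternatives. Nothing in the labels used here ties libraries to litters or batches. The p-values measure the spread between these libraries, 1 per mouse. Litter or batch effects, if any, could not be separated from that spread or from the group difference. The closest pair of libraries, within or across groups, differed by more than sampling noise (chi-square over degrees of freedom 11.5). Named genes were every called member, a set of members picked by role, the called partner genes and abundant markers of cell type lists where a result turned on them, and any other named gene was chosen after its values were seen. The members and lists were chosen with earlier results of these data known, and support nothing independently. Promoter windows and their sequences came from RefSeq (GRCm38.p6).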

Additional observations from a re-analysis of the deposited data

Results flagged for a closer look

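The Dnajc27 level of vehicle mouse 4 stood apart from its group, at 22.7 CPM, where vehicle mice 1 to 3 lay between 19.1 and 19.4 CPM. Its gap to the nearest mouse was 0.894 of the group's range. It was the single such value among 66 groups of named genes examined, where chance gives about 1 in 20.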

How the results depend on the processing

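Members called higher numbered 2 with DESeq2, 2 with limma-voom and 0 to 9 with each library left out. The fits with a library left out called 0.283% to 14.3% of all genes tested higher and 0.621% to 11.9% lower. Members called lower numbered 3 to 19 with each library left out, cytosolic members called higher 0 to 1 and lower 2 to 12, and ER members called lower 0 to 5. Cytosolic members called lower numbered 7 without a filter on low counts, when 4.42% of the 28583 genes tested were called lower. ER members called lower numbered 1 with the replicate block, which called 5.21% of all genes tested lower and 3.5% higher. The median ER log2 fold change was -0.15 when scaled by total counts only and -0.14 without the filter. These settings moved the median of all genes to -0.07 with total counts and -0.03 without the filter, from 0.00 in the reported fit. Without the filter that median was taken over the larger set of 28583 genes. Scaling by total counts moved the share of all genes called to 7.09% higher and 11.2% lower. Hsp90b1, never called, turned sign to a log2 fold change of -0.032 with total counts only and -0.011 without the filter, and ranged over -0.022 to 0.049 with each library left out, below 0 without cotadutide mouse 1 or 3. Its values under those scalings lie above the all-gene medians. With each library left out, Dnajb9 ranged over -0.113 to 0.003, above 0 without vehicle mouse 1, and Hsp90ab1 over -0.018 to 0.132, below 0 without cotadutide mouse 3. None of these was called. All 18 called members were also called by DESeq2, limma-voom, total counts and upper quartile scaling. RLE size factors lost Hspa5, and the fit without the filter lost Hspa12a, Dnajb5, Hspb6 and Hspb7. The cause of these shifts was not tested. Over genes, deviations from the group mean gave r between -0.04 and 0.14 for mice sharing a replicate number. Other pairs across the groups gave -0.191 to 0.203. So few pairs cannot show whether the numbers pair mice. The replicate block left 1 member higher and 12 lower, without Hspa5 (edgeR adjusted p = 0.115), Hspa13 (0.054), Dnajc10 (0.091), Hspb6 (0.0547) and Hsph1 (0.0752). Calls over all genes fell too with the replicate block, to the shares given above. The depth needed for genes of low counts was not tested. The marker sums without Des and without cotadutide mouse 3 were chosen after the data were seen.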
